A study of Mus musculus with 9 samples.

Results

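Uptake of glucose and the first steps of glycolysis were examined through 10 genes in macrophages from healing mouse skin. They encode the glucose transporter GLUT1 (Slc2a1), the hexokinases (Hk1, Hk2 and Hk3), glucose-6-phosphate isomerase (Gpi1), the phosphofructokinase subunits of liver, platelet and muscle type (Pfkl, Pfkp and Pfkm) and a pair of bifunctional regulators of phosphofructokinase (Pfkfb3 and Pfkfb4). The genes were chosen by symbol for these roles. All 10 were among the 18303 genes of the deposited count table and among the 13308 genes with enough counts to be tested. The libraries were made from cells of untreated C57BL/6J wild-type mice, taken from skin wounds 14 days after injury (5 libraries) or 4 days after injury (4 libraries). Cells were sorted as CD45+CD11b+F4/80+ from wounds dispersed with enzymes and by mechanical force, with dead cells excluded. The age and sex of the mice are not given in the sources used here, nor is it stated that libraries came from separate animals. The p-values therefore measure the spread between these libraries, which may be technical.

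Glucose enters macrophages mainly down its gradient through GLUT1, and hexokinases trap it by adding a phosphate. Glucose-6-phosphate is then converted to fructose-6-phosphate, which phosphofructokinase, the main control point of glycolysis, commits to breakdown, and the PFKFB enzymes set the level of fructose-2,6-bisphosphate, its strongest activator. Macrophages raise glycolysis when they meet inflammatory signals or low oxygen, and HIF-1 is a known activator of many genes of this pathway.

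Total counts ranged from 17982630 to 57809914 per library, and 3 libraries (day 14 replicate 1 and day 4 replicates 3 and 4) held over 30000000. Macrophage markers were abundant at both days: Lyz2, for lysozyme, averaged 11420 ± 1012 CPM (counts per 1000000 counts of the library, after scaling) at day 14 (SD, n = 5) and 10740 ± 581 at day 4 (SD, n = 4). Of 10 macrophage and sort markers tested, 4 were lower at day 14 (Fcgr1, Cd68, Itgam and Mertk) and 3 were higher (Mrc1, Ptprc and Emr1), and the 10 summed to between 24420 and 27130 CPM at day 14 and between 21700 and 25290 CPM at day 4. Transcripts of other cells were also present. Summed over 15 fibroblast markers with values in every library, levels ran from 6911 to 11030 CPM at day 14 and from 12480 to 24740 CPM at day 4, and of 16 markers tested 11 were lower at day 14 by the test described below. Over 10 neutrophil markers the sums ran from 303 to 1943 CPM at day 14, where replicate 3 was highest and replicate 5 next with 907 CPM, and from 1052 to 2477 CPM at day 4. Of 9 neutrophil markers tested, 1, the gelatinase gene Mmp9, was lower at day 14 and 0 were higher, and Camp, Ngp, Elane and Mpo averaged under 1 CPM. Other lists were higher at day 14: 8 of 11 dendritic and Langerhans cell markers tested (sums of 308 to 379.6 CPM at day 14 and 149 to 216 CPM at day 4), 6 of 8 keratinocyte markers (14.8 to 22.8 CPM at day 14 and 5.86 to 10.3 CPM at day 4), 3 of 3 eosinophil markers (13.9 to 20.03 CPM at day 14 and 4.27 to 7.24 CPM at day 4) and 4 of 4 erythroid markers (16.4 to 33.1 CPM at day 14 and 3.75 to 11.07 CPM at day 4), with 0 lower in each. Of the remaining lists, 2 of 6 mast cell, 1 of 1 T and NK cell, 2 of 2 B and plasma cell, 3 of 10 endothelial and 1 of 5 platelet markers were higher, and 1 mast cell and 2 platelet markers were lower. The part of these cells in the values of the 10 genes was not tested. In bulk RNA, fewer cells of a type and less RNA per cell cannot be told apart. Day 14 replicate 5 held no counts from the gene Aplp2 onward on chromosome 9 or on the X and Y chromosomes. Pfkfb4 lies beyond that point, so its values come from the 8 other libraries.

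By edgeR's quasi-likelihood test with Benjamini-Hochberg adjustment over all 13308 genes and a threshold of 0.05, 3 of the 10 genes were lower at day 14 than at day 4 and 0 were higher. These 3 were Slc2a1, Gpi1 and Pfkl, and their libraries did not overlap between days. Among all genes tested, 30.9% passed in either direction, 15.1% as lower and 15.8% as higher at day 14, and 25.7% had no overlap between days. A share of 3 in 10 passing in either direction is thus close to that of all genes. The count without adjustment was 4 lower and 0 higher at p under 0.05. DESeq2's Wald test called 4 lower and 0 higher, and limma-voom called 3 lower and 0 higher. The median log2 fold change, day 14 over day 4, was -0.21 over the 10 genes and 0.01 over all genes tested. Of the 10 values 9 were below 0, but 7 of the 10 genes did not pass.

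**Figure D1:**
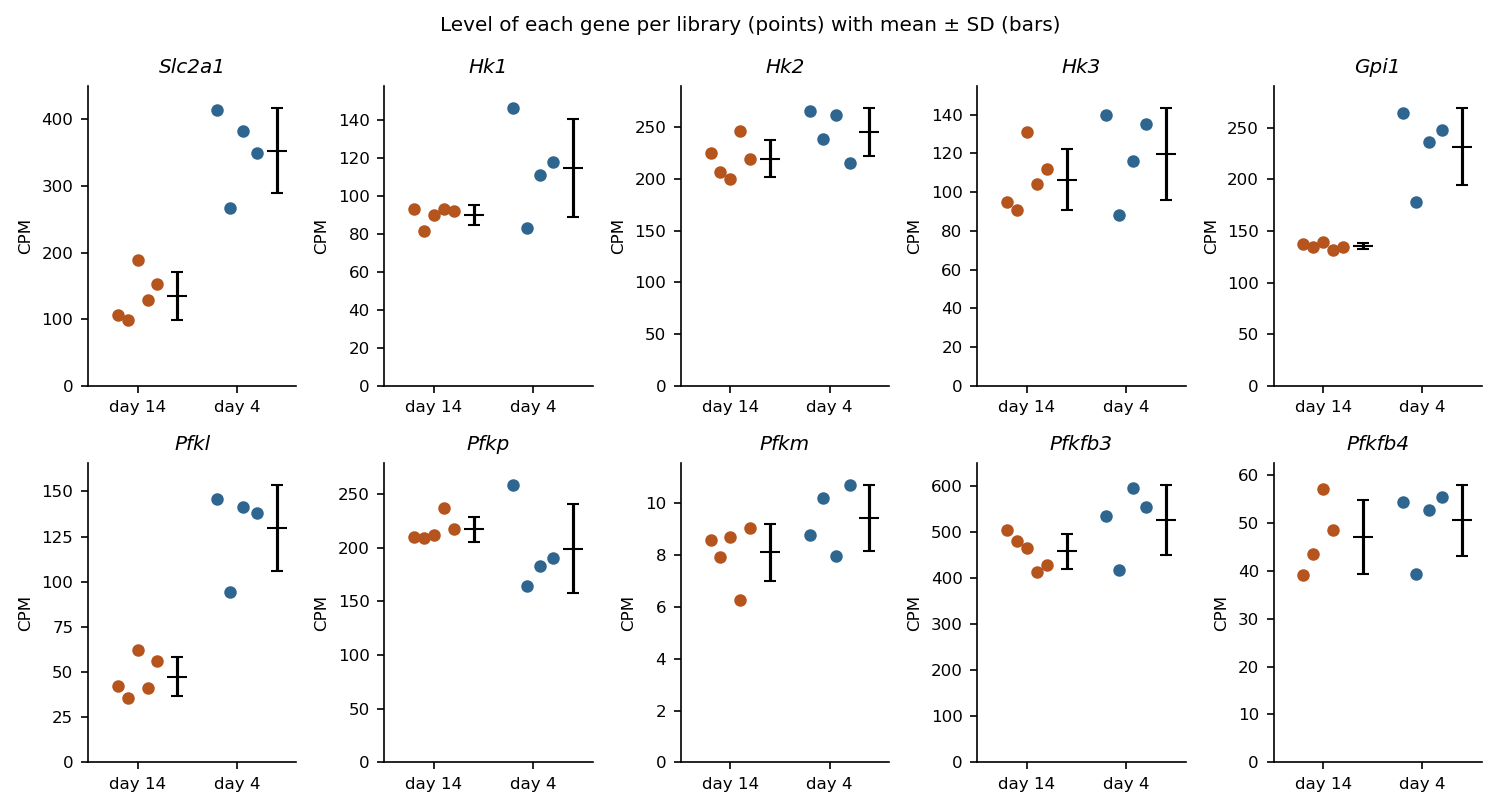
Level of each gene in CPM (vertical axes, linear from 0) in each library at day 14 (orange points, left) and day 4 (blue points, right), with the mean and SD as a black bar beside the points. Slc2a1, Gpi1 and Pfkl show a gap between days, with 188, 139 and 62.1 CPM as their highest day 14 values and 266, 178 and 94.3 CPM as their lowest day 4 values, while the other 7 genes overlap.

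Slc2a1 (chr4:119108745-119137330, GRCm38, plus strand) encodes GLUT1, the main glucose transporter of activated macrophages. Its level was 106, 99.0, 188, 128.5 and 153 CPM in the day 14 libraries, against 414, 266, 382 and 349 CPM in the day 4 libraries. The highest day 14 library, replicate 3, lay well below the lowest day 4 library, replicate 2. The means were 134.9 ± 36.6 CPM at day 14 (SD, n = 5) and 352.9 ± 63.5 CPM at day 4 (SD, n = 4). This was a 2.62-fold lower level at day 14 (log2 fold change -1.39 ± 0.19 SE, 95% interval -1.79 to -0.98, edgeR adjusted p = 0.000182). Day 14 replicate 3, which had the highest neutrophil marker sum of that day, also had the highest Slc2a1. With the mean neutrophil marker level as a covariate the log2 fold change was -1.03 (edgeR adjusted p = 0.000315), and with the fibroblast markers it was -1.34 (edgeR adjusted p = 0.0205). Apart from day 14 replicate 3, that neutrophil level was at most 5.85 (log2 CPM) at day 14 and at least 6.10 at day 4. The neutrophil covariate is therefore largely bound up with day. Among the 6 libraries with fewer than 30000000 counts the log2 fold change of Slc2a1 was -1.27 (edgeR adjusted p = 0.0126). Over 22 distinct alternatives with at least 2 libraries a day it lay between -1.55 and -1.03, with adjusted p from 2.19e-11 to 0.0205.

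The stretches before the starts of the 3 genes that passed, and of Hk2, which did not, are shown because HIF-1 is a known activator of this pathway. Each runs from 250 to 11 bases before the RefSeq start (GRCm38.p6), 5′ to 3′ on the gene's strand. For Pfkl the first 53 bases of that window, an untranslated exon of another annotated Pfkl transcript, are left out, and the last 24 bases for Slc2a1 lie in its annotated untranslated first exon. Capitals mark the core of the HIF binding motif, ACGTG or GCGTG, or its reverse complement, CACGT or CACGC. The stretches lie at chr4:119108495-119108734 (plus strand), chr7:34230347-34230586 (minus), chr10:78009818-78010004 (minus) and chr6:82774465-82774704 (minus).
Slc2a1: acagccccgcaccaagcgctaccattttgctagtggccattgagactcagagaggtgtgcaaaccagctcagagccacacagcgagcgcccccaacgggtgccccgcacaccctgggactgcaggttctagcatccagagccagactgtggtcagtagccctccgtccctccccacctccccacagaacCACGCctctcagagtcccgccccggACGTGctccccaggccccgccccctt
Gpi1: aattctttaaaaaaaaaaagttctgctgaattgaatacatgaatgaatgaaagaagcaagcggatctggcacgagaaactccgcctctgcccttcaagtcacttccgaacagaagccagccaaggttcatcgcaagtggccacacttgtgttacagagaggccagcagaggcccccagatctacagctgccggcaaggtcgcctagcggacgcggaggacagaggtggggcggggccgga
Pfkl: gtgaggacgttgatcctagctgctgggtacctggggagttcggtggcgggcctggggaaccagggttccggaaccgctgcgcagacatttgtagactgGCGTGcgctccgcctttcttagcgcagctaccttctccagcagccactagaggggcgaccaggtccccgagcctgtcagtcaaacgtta
Hk2: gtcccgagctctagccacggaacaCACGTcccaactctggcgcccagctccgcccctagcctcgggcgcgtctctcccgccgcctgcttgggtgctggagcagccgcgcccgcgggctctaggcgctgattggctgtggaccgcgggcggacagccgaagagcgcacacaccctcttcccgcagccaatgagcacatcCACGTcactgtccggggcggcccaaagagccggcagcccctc
Slc2a1 held 2 cores, starting 61 and 36 bases before the start, and Hk2 held 2, at 226 and 52 bases. Pfkl held 1, at 99 bases, and Gpi1 held 0. All 10 genes had at least 1 window among the RefSeq promoters, 15 windows of 240 bases in all, and 12 of these (80.0%) held a core, covering 9 of the 10 genes. Some windows belong to 1 gene and overlap, and overlapping windows can hold the same core, as for Pfkm. Of all 32851 promoter windows 37.4% held a core, as did 52.7% of those of genes tested. These shares are per window. The share per gene over all genes was not computed, so no excess among the 10 genes is shown. The 6-base E-box CACGTG, which contains the core on both strands, was present in 13.3% of the 15 windows, in 7.68% of those of genes tested and in 5.69% of all. A match of letters does not show binding.

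Hexokinases gave no call. Hk1 (chr10:62268855-62379920), the form of most tissues that binds mitochondria, had 93.4, 81.4, 90.1, 93.35 and 92.0 CPM at day 14, against 146, 83.4, 111 and 118 CPM at day 4. All but replicate 2 of the day 4 libraries were above the whole day 14 range. The means were 90.05 ± 5.03 CPM at day 14 (SD, n = 5) and 114.8 ± 25.9 CPM at day 4 (SD, n = 4), with a log2 fold change of -0.35 ± 0.13 SE (95% interval -0.63 to -0.07). The edgeR p was 0.0186 before and 0.0571 after adjustment. Single libraries moved this value: without day 4 replicate 2 the log2 fold change was -0.48 (edgeR adjusted p = 0.00354), and without day 4 replicate 1 it was -0.21 (edgeR adjusted p = 0.182). Over all alternatives the adjusted p of Hk1 ran from 0.00354 to 0.411.

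Hk2 (chr6:82725025-82774454), an inducible form that also binds mitochondria and is a known HIF-1 target, had 225, 206.5, 199.9, 246 and 219.6 CPM at day 14 and 265, 238, 262 and 216 CPM at day 4. The days overlapped, with day 4 replicates 2 and 4 inside the day 14 range. The log2 fold change was -0.16 (95% interval -0.36 to 0.04, edgeR adjusted p = 0.202), an interval that does not reach the change of Slc2a1. Hk3 (chr13:55005985-55021475), a hexokinase of myeloid cells, had 94.7, 90.8, 131, 104 and 112 CPM at day 14 and 139.6, 87.9, 116 and 135 CPM at day 4. Its lowest library of all was day 4 replicate 2, and the days overlapped across most of their range. The log2 fold change of Hk3 was -0.17 (95% interval -0.48 to 0.14, edgeR adjusted p = 0.383), and its sign turned with the neutrophil covariate (0.08). The interval allows a modest fall of Hk2 and Hk3 but also none.

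Gpi1 (chr7:34201327-34230336) encodes the isomerase between the hexokinase and phosphofructokinase steps. Its level was 137, 134, 139, 132 and 134 CPM at day 14, against 264, 178, 236 and 248 CPM at day 4. The day 14 libraries were nearly equal to one another, and all lay below every day 4 library. The means were 135.4 ± 2.83 CPM at day 14 (SD, n = 5) and 231.4 ± 37.3 CPM at day 4 (SD, n = 4), a 1.71-fold lower level at day 14 (log2 fold change -0.77 ± 0.10 SE, 95% interval -0.9997 to -0.55, edgeR adjusted p = 0.000185). The coefficient of variation among day 14 libraries was 2.09%, and it was 16.1% among day 4 libraries. Of 4150 tested genes averaging at least 50 CPM, 46 (1.11%) varied less than Gpi1 among day 14 libraries, and the median gene varied by 9.85% at day 14 and 9.83% at day 4. Gpi1 was picked for this as the least variable of the 10 genes at day 14, so that rank is less rare than it reads. Gapdh, of lower glycolysis, varied by 2.04% at day 14 and 15.7% at day 4. In day 14 replicate 3 Gpi1 lay 0.04 (log2) above the mean of its day, against 0.52 for Slc2a1 and 0.41 for Pfkl. Its log2 fold change was -0.69 with the neutrophil covariate and -1.05 with the fibroblast covariate, and it lay between these values in the other alternatives, with adjusted p from 1.31e-10 to 0.00856. Of the exons of Gpi1, 11.5% overlap a gene on the other strand, Gm26762, and the library kit does not mark strand, so reads there cannot be assigned.

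**Figure D2:**
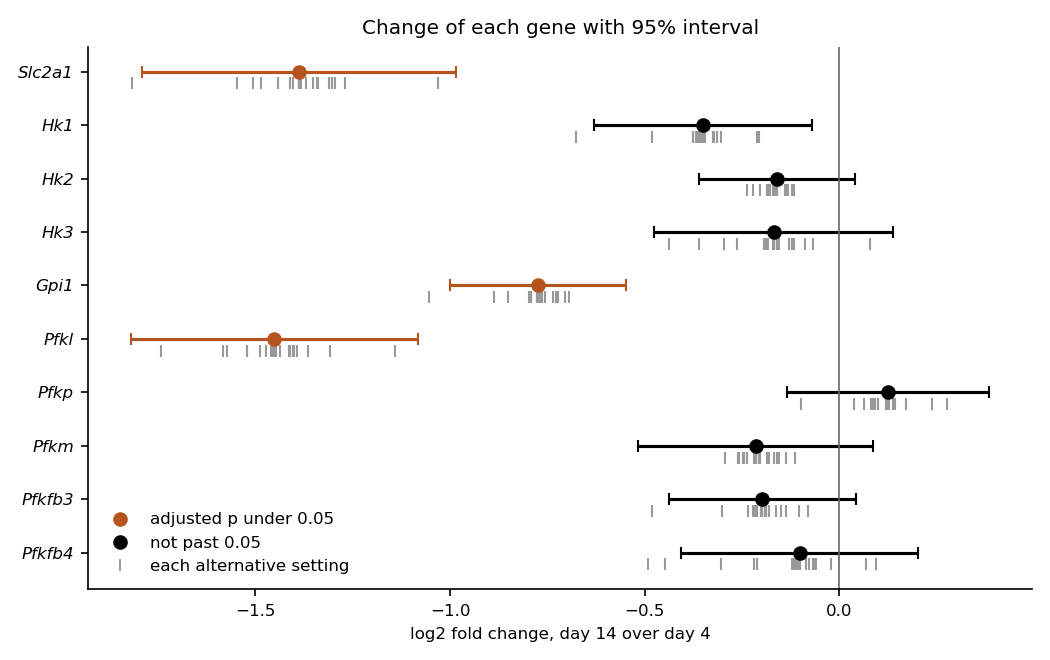
Log2 fold change of each gene, day 14 over day 4 (horizontal axis), as a point with its 95% interval, in orange where the adjusted p was under 0.05 and in black elsewhere, with grey ticks for each alternative setting. Slc2a1 (-1.39), Gpi1 (-0.77) and Pfkl (-1.45) lie wholly left of 0 under every setting, and Pfkp (0.125) is the only point right of 0.

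Phosphofructokinase works as a tetramer of liver, platelet and muscle subunits, whose mixture sets its response to activators and inhibitors. Pfkl (chr10:77986947-78009807), the liver-type subunit, had 42.6, 35.9, 62.1, 41.1 and 55.95 CPM at day 14, against 145.5, 94.3, 141 and 138 CPM at day 4. The days did not overlap, and day 4 replicate 2 stood apart below the other libraries of its day. The means were 47.5 ± 10.99 CPM at day 14 (SD, n = 5) and 129.8 ± 23.9 CPM at day 4 (SD, n = 4). Pfkl was 2.73-fold lower at day 14 (log2 fold change -1.45 ± 0.17 SE, 95% interval -1.82 to -1.08, edgeR adjusted p = 6.72e-05). The value was -1.14 with the neutrophil covariate (edgeR adjusted p = 0.000236), -1.49 with the fibroblast covariate (edgeR adjusted p = 0.0077) and -1.31 among the 6 shallower libraries (edgeR adjusted p = 0.00927). Over the same 22 alternatives as for Slc2a1 the log2 fold change lay between -1.58 and -1.14, with adjusted p from 5.31e-14 to 0.00927. The changes of Pfkl and Slc2a1 lay within each other's intervals.

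Pfkp (chr13:6579874-6649060), the platelet-type subunit, had 209.7, 209, 212, 237 and 217 CPM at day 14 and 258.5, 164, 182.5 and 190.4 CPM at day 4. All 5 day 14 libraries were above 3 of the day 4 libraries, and day 4 replicate 1 was above them all. The log2 fold change was 0.125 (95% interval -0.13 to 0.38, edgeR adjusted p = 0.451). Without day 4 replicate 1 it was 0.28 (edgeR adjusted p = 0.0389), and with the fibroblast covariate -0.10, so neither its call nor its sign was stable, and adjusted p ran from 0.0389 to 0.912. Exons of Pitrm1, on the other strand, overlap 5.58% of the Pfkp exons, and Pitrm1 had 57.7 ± 4.93 CPM at day 14 (SD, n = 5) and 55.65 ± 5.54 CPM at day 4 (SD, n = 4).

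Pfkm (chr15:98092589-98132447), the muscle-type subunit, had the lowest level of the 10 genes, also per length, with 8.565, 7.92, 8.69, 6.27 and 9.03 CPM at day 14 and 8.75, 10.2, 7.96 and 10.7 CPM at day 4. The days overlapped, and the log2 fold change was -0.21 (95% interval -0.52 to 0.09, edgeR adjusted p = 0.257). Skeletal muscle markers were low: 13 of them summed to between 23.3 and 48.5 CPM at day 14 and between 18.2 and 51.1 CPM at day 4, and 0 of the 11 tested passed in either direction. Myh1, Myh2, Myh4 and Mb averaged under 1 CPM. The predicted gene Gm26513 overlaps 10.2% of the Pfkm exons on the same strand, and exons of Hk1 overlap its antisense gene Hk1os by 1.84%, so reads there cannot be assigned.

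Comparing subunits within a library removes the scaling between libraries. The log2 ratio of Pfkp to Pfkl counts was 2.30, 2.54, 1.77, 2.52 and 1.96 in the day 14 libraries, against 0.83, 0.80, 0.37 and 0.465 in the day 4 libraries. Every day 14 library thus held a higher share of the platelet type relative to the liver type than any day 4 library. The mean difference was 1.603 (95% interval 1.13 to 2.08), a 3.04-fold higher ratio at day 14 than at day 4. The log2 ratio of Pfkm to Pfkl also did not overlap, with -2.53 ± 0.28 at day 14 (SD, n = 5) and -3.77 ± 0.43 at day 4 (SD, n = 4), a difference of 1.24 (95% interval 0.69 to 1.796). For both pairs the two-sided exact permutation p was 0.0159, the smallest that 5 against 4 libraries can give. Adjusted over the 7 pairs compared, it was 0.0556, so 0 of the 7 pairs passed the threshold of 0.05. With 2 of 7 pairs at the smallest p, no lower adjusted value was possible. Both pairs have Pfkl as denominator, so they are not separate results. Pfkm to Pfkp differed by -0.36 (95% interval -0.88 to 0.16, exact permutation p = 0.175, adjusted 0.306).

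The hexokinase ratios overlapped between days. Hk2 to Hk1 had a log2 ratio of 1.28 ± 0.09 at day 14 (SD, n = 5) and 1.12 ± 0.32 at day 4 (SD, n = 4), a difference of 0.16 (95% interval -0.18 to 0.51, exact permutation p = 0.27, adjusted 0.378). Hk3 to Hk1 differed by 0.17 (95% interval -0.09 to 0.43, exact permutation p = 0.159, adjusted 0.306). Hk3 to Hk2 differed by 0.00167 (95% interval -0.47 to 0.47, exact permutation p = 0.952). These intervals lie below the difference found for Pfkp to Pfkl, but they do not show that the hexokinases moved alike.

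**Figure D3:**
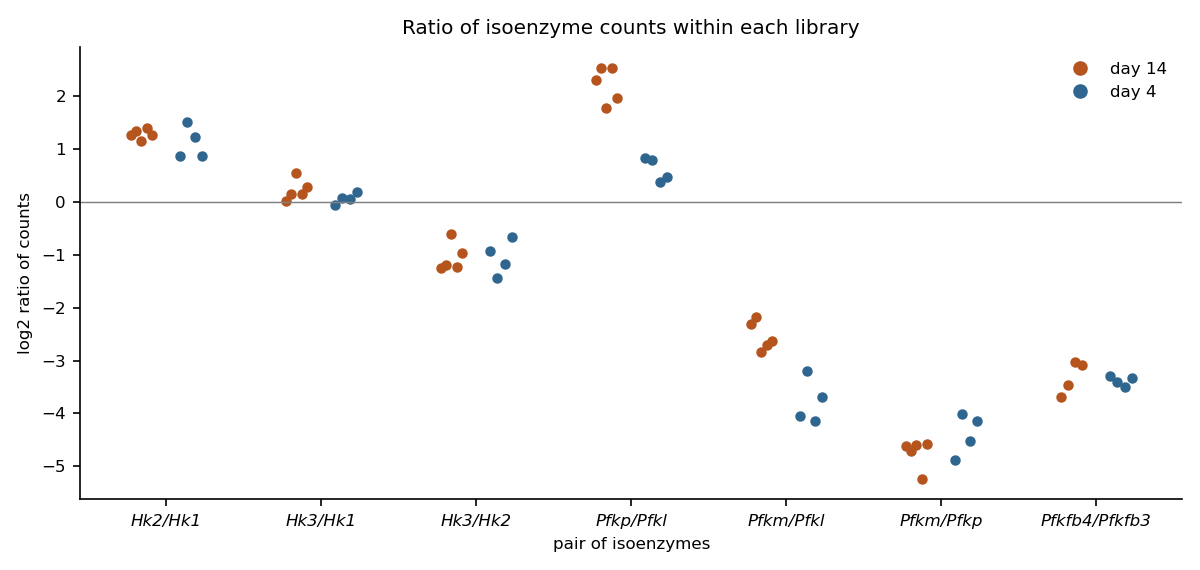
Log2 ratio of counts of 2 isoenzymes within each library (vertical axis) for the 7 pairs compared (horizontal axis), at day 14 (orange points, left) and day 4 (blue points, right). The days separate for Pfkp/Pfkl, where the lowest day 14 value is 1.77 and the highest day 4 value 0.83, and for Pfkm/Pfkl, and they overlap for the other 5 pairs.

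Scaled by the length of the longest coding transcript, the liver type made up 18.7% ± 3.58 of the phosphofructokinase subunit transcripts at day 14 (SD, n = 5) and 40.4% ± 3.89 at day 4 (SD, n = 4). The platelet type made up 77.2% ± 3.84 at day 14 and 55.7% ± 3.74 at day 4, and the muscle type 4.15% ± 0.60 at day 14 and 3.91% ± 1.03 at day 4. The higher share of the platelet type at day 14 went with the lower level of Pfkl. Pfkp itself did not pass the test, but its interval (-0.13 to 0.38) allows a modest rise. The part of each gene in the shift of shares was not tested. The sizes depend on the length used: with the union of all annotated exons the liver type had 27.4% at day 14 and 52.3% at day 4, so that it was the most abundant form at day 4 by this length and the platelet type by the other. The drop of the liver type's share was present with both lengths. Because Pfkl fell against both other subunits, any lengths would show it, so this is no separate support. Among hexokinases Hk2 had 42.4% ± 3.34, Hk3 35.1% ± 3.90 and Hk1 22.4% ± 0.82 at day 14 (SD, n = 5), against 41.4% ± 5.38, 34.1% ± 3.48 and 24.5% ± 2.37 at day 4 (SD, n = 4). The hexokinase shares thus differed between days by less than 1 SD, taking the larger of each pair of SDs.

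**Figure D4:**
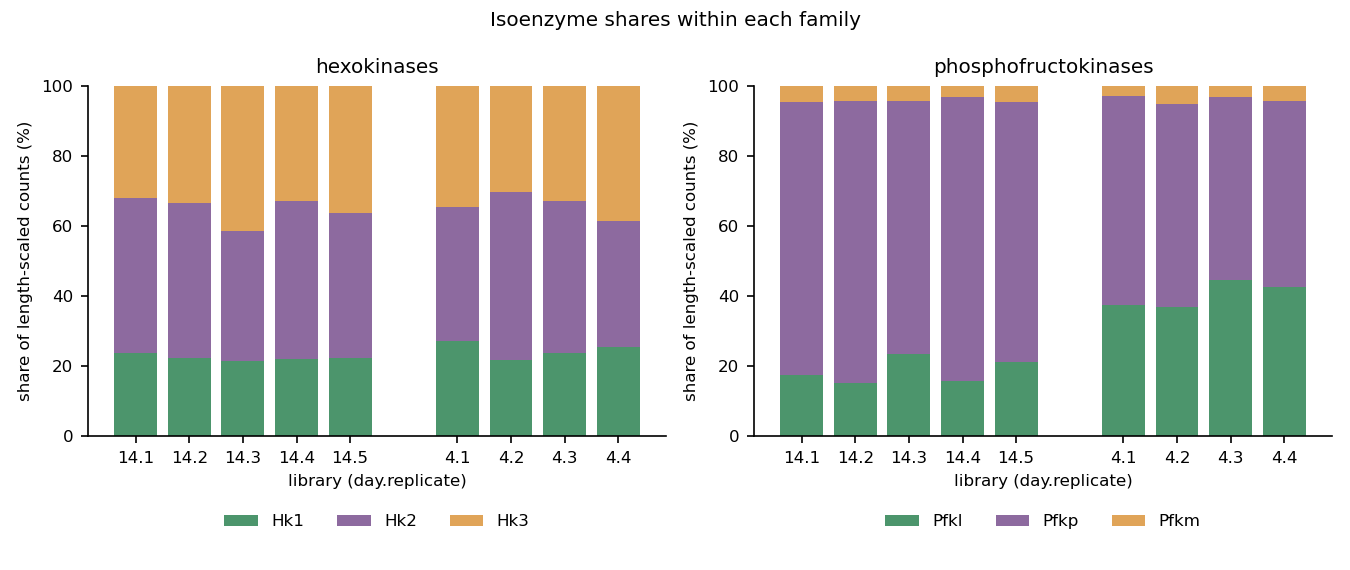
Share of each isoenzyme in the length-scaled counts of its family (vertical axis, percent, coding transcript length) in each library (horizontal axis, day and replicate, day 14 on the left), for hexokinases and phosphofructokinases. Pfkl holds between 15.3% and 23.5% in the day 14 libraries and between 36.9% and 44.75% in the day 4 libraries, while hexokinase shares overlap.

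The bifunctional enzymes make and remove fructose-2,6-bisphosphate, and Pfkfb3 is the form with the strongest bias towards making it. Pfkfb3 (chr2:11471430-11554071) had 506, 481, 465, 413.5 and 429 CPM at day 14 and 536, 418, 597 and 555 CPM at day 4. The days overlapped only through day 4 replicate 2, the lowest of its day. The log2 fold change was -0.20 (95% interval -0.44 to 0.04, edgeR adjusted p = 0.19), and without that library it was -0.30 (edgeR adjusted p = 0.03), with adjusted p from 0.03 to 0.668 over all alternatives. Pfkfb4 (chr9:108988272-109032236) had 39.2, 43.5, 57.1 and 48.5 CPM in day 14 replicates 1 to 4 and 54.4, 39.4, 52.7 and 55.3 CPM at day 4. Its days overlapped, and the log2 fold change was -0.10 (95% interval -0.41 to 0.20, edgeR adjusted p = 0.603). The sign turned with the neutrophil covariate (0.095) and in the 6 shallower libraries (0.068). In day 14 replicate 5 Pfkfb4 is listed at 0, and it would have a log2 fold change of -0.45 (edgeR adjusted p = 0.806) if that entry were read as a level. The log2 ratio of Pfkfb4 to Pfkfb3 was -3.32 ± 0.31 at day 14 and -3.38 ± 0.09 at day 4 (SD, n = 4 each), a difference of 0.06 (95% interval -0.34 to 0.47, exact permutation p = 0.714, where 0.0286 is the smallest possible).

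Ordered by level per kilobase of the longest coding transcript, Pfkfb3 came first at both days, with 95.6 CPM per kb at day 14 and 109.6 at day 4. At day 14 Pfkp (52.3), Gpi1 (46.95), Slc2a1 (41.4), Hk2 (39.8), Hk3 (33.1), Hk1 (21.05), Pfkfb4 (13.5), Pfkl (12.7) and Pfkm (2.81 CPM per kb) followed. Of these neighbours, Gpi1 and Slc2a1, Slc2a1 and Hk2, Hk2 and Hk3, and Pfkfb4 and Pfkl overlapped between libraries. At day 4 the order after Pfkfb3 was Slc2a1 (108), Gpi1 (80.2), Pfkp (48.0), Hk2 (44.5), Hk3 (37.2), Pfkl (34.8), Hk1 (26.8), Pfkfb4 (14.5) and Pfkm (3.27 CPM per kb). There, only Hk1 and Pfkfb4, and Pfkfb4 and Pfkm, did not overlap. Slc2a1 and Pfkl stood lower in the day 14 order than in the day 4 order, and Pfkp stood higher. With the union of exons as length the order changed: Slc2a1 then came first at day 4, and Pfkp, whose annotated exons add up to 13.4 kb, dropped to the sixth place at day 14 and the seventh at day 4.

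Libraries of 1 day differed in a shared way. Day 4 replicate 2 was the lowest of its day for 8 of the 10 genes, with a median deviation of -0.35 (log2) from the day's mean. Day 4 replicate 1 was the highest for 7 of the 10. Day 4 replicate 2 also had the highest fibroblast marker sum (24740 CPM, against 12480 to 16390 CPM in the others of that day), and day 4 replicate 1 the highest neutrophil marker sum (2477 CPM, against 1052 to 1390 CPM). At day 14, replicate 3 was the highest for 5 of the 10 genes and had the highest neutrophil marker sum of that day, and replicate 2 was the lowest for 5 and had the lowest such sum. The part of these markers in the spread within a day was not tested. How often each library was highest or lowest over all genes tested was not counted. The counts for the 10 genes are therefore not shown to be particular to them.

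**Figure D5:**
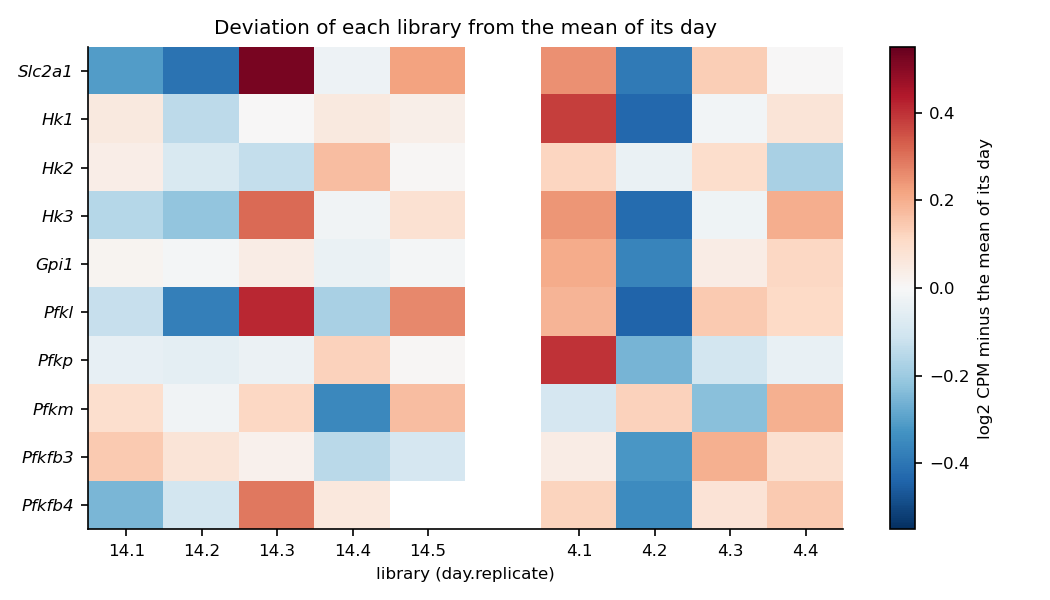
Deviation of each library from the mean of its day (colour, difference of log2 CPM) for each gene (rows) and library (columns, day and replicate, day 14 on the left). Day 4 replicate 2 is below its day's mean for all genes but Pfkm, and the blank cell is Pfkfb4 in day 14 replicate 5.

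For each gene, the other gene with the highest correlation of log2 CPM over the 9 libraries (8 for Pfkfb4) was sought among 7597 to 8237 tested genes averaging at least 10 CPM. Pfkl was most like Cux1, for a homeodomain transcription factor (Pearson r = 0.996, and 0.971 for deviations from the day means). Slc2a1 was most like Sdhb, for a subunit of succinate dehydrogenase (r = 0.994, deviations 0.965), and Gpi1 most like Afg3l2, for a mitochondrial protease (r = 0.992, deviations 0.942). Pearson r ignores the size of a change. The log2 fold change was -0.66 for Cux1 and -0.37 for Sdhb, against -1.45 for Pfkl and -1.39 for Slc2a1. For Afg3l2 it was -0.71, against -0.77 for Gpi1. Pfkp was most like Calr, for the chaperone calreticulin (r = 0.952, deviations 0.978). Hk1 was most like Pwp2 (r = 0.969, deviations 0.954), Hk2 like Alg11 (r = 0.925, deviations 0.909) and Hk3 like Tcf25 (r = 0.966, deviations 0.984). Pfkfb3 was most like Wasf2 (r = 0.955, deviations 0.951), Pfkfb4 like Anapc2 (r = 0.947, deviations 0.955) and Pfkm like Tm7sf3 (r = 0.871, deviations 0.881). The 10 partners were all different genes. They are the closest of all genes searched, and all genes share the libraries' differences in depth and day, so the values describe likeness only.

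The rest of sugar metabolism was read from lists of genes by pathway, with the same edgeR test, in which 30.9% of all genes passed in either direction. Of lower glycolysis and lactate handling genes, 11 of 16 tested were lower at day 14 and 1, Eno2, was higher, with a median log2 fold change of -1.12. The count of lower genes was 9 to 12 over all alternatives, but that of higher genes was 0 with each covariate, in the 6 shallower libraries and without day 14 replicate 1, 4 or 5 or day 4 replicate 3 or 4, and 2 without day 14 replicate 3 or day 4 replicate 2. Tpi1, the triosephosphate isomerase, had 115.9 ± 14.6 CPM at day 14 (SD, n = 5) and 300.1 ± 34.1 CPM at day 4 (SD, n = 4). Pgam1, a phosphoglycerate mutase, averaged 169.6 ± 21.2 CPM in the 5 day 14 libraries and 426.1 ± 49.1 CPM in the 4 day 4 libraries (SD). Pkm, the pyruvate kinase, had 507.4 ± 102.2 CPM at day 14 and 1115 ± 210 CPM at day 4 (SD, n = 4 each, without day 14 replicate 5). Of the 10 genes, Slc2a1 and Pfkl had log2 fold changes of that size and Gpi1 a smaller one. The difference between the lists was not tested.

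Of 8 other sugar transporters tested, 2 were lower and 0 higher. These were Slc2a10 and the myo-inositol transporter Slc2a13, with means of 1.11 and 1.92 CPM at day 14 and of 3.11 and 3.802 CPM at day 4. Both calls were lost with the fibroblast covariate, which did not overlap between days (edgeR adjusted p = 0.299 and 0.554, the highest of any alternative for these genes). Slc2a3, for the transporter GLUT3, had 111 ± 86.05 CPM at day 14 (SD, n = 5) and 113.0 ± 49.8 CPM at day 4 (SD, n = 4), with a log2 fold change of -0.02 (95% interval -1.17 to 1.13, edgeR adjusted p = 0.978). That value rested on single libraries: without day 14 replicate 3 it was -0.63 (edgeR adjusted p = 0.0789) and without day 4 replicate 1 it was 0.32 (edgeR adjusted p = 0.679). Adjusted p ran from 0.035 to 0.991 over the alternatives with at least 2 libraries a day. The difference between the changes of Slc2a3 and Slc2a1 was not tested.

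Of 16 other hexose phosphate genes tested, 5 were lower (Pgm2, Galk1, Slc37a2, Galm and Mpi) and 2 higher (Fbp1 and Pgm2l1). Fbp1 was scarce, with means of 0.51 CPM in day 14 libraries and 0.12 CPM in day 4 libraries. The count of higher genes was 0 without day 14 replicate 1, 2 or 4, with the fibroblast covariate and in the 6 shallower libraries. It was 1 without day 14 replicate 3 or day 4 replicate 1, 3 or 4, and also with the neutrophil covariate, DESeq2 or the stricter filter. Pgm2, a phosphoglucomutase, had 17.2 ± 1.45 CPM at day 14 (SD, n = 5) and 45.4 ± 8.54 CPM at day 4 (SD, n = 4). Slc37a2, a sugar phosphate exchanger of macrophages, had 186 ± 19.8 CPM at day 14 and 313 ± 30.2 CPM at day 4 (SD, n = 4 each), and Galk1, the galactokinase, had 7.16 CPM at day 14 and 15.4 CPM at day 4. Of 17 glycogen genes 4 were lower and 0 higher. Gys1, the glycogen synthase of non-liver tissues, had 7.81 ± 1.83 CPM at day 14 (SD, n = 5) and 30.6 ± 8.52 CPM at day 4 (SD, n = 4), a log2 fold change of -1.97 (edgeR adjusted p = 3.26e-05). Pygl, a glycogen phosphorylase, had 62.2 CPM at day 14 and 123 CPM at day 4, and Gbe1 was lower as well. Gsk3b, a kinase that inhibits glycogen synthase and the gene of that list with the highest CPM averaged over the 9 libraries, had 129 CPM at day 14 and 133 CPM at day 4 and did not pass.

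In the pentose phosphate pathway 3 of 11 genes were lower and 1 higher, with 5 lower without day 4 replicate 2 and 2 higher without day 14 replicate 3. H6pd, the hexose-6-phosphate dehydrogenase of the endoplasmic reticulum, had 39.4 CPM at day 14 and 82.7 CPM at day 4, Pgd, which oxidises 6-phosphogluconate, had 189.7 CPM at day 14 and 279.6 CPM at day 4, and Taldo1 was the third. Prps2, which makes phosphoribosyl pyrophosphate, was higher, at 57.0 CPM in the day 14 libraries and 33.85 CPM in the day 4 libraries (means, n = 4 each). In the hexosamine pathway 3 of 10 were lower (Pgm3, Gnpda1 and Gfpt2) and 2 higher (Uap1 and Ogt). The higher count was 0 without day 14 replicate 1, 2 or 4 or day 4 replicate 1, with either marker covariate and in the 6 shallower libraries. It was 1 without day 14 replicate 5 or day 4 replicate 3 or 4, with RLE scaling and with the library size covariate. Gfpt1, the first enzyme of that pathway and the gene of the list with the highest CPM, had 302.5 ± 74.4 CPM at day 14 (SD, n = 5) and 241 ± 55.3 CPM at day 4 (SD, n = 4) and did not pass. Medians of the log2 fold change were -0.18 for other transporters, -0.18 for other hexose phosphate enzymes, -0.14 for pentose phosphate, -0.04 for glycogen and 0.06 for hexosamine genes.

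Of 27 regulators tested, 5 were lower at day 14 (Hif1a, Egln1, Egln3, Vhl and Mlx) and 1 was higher (Txnip, an inhibitor of glucose uptake). Hif1a, the oxygen-regulated subunit of HIF-1, had 395 ± 58.8 CPM at day 14 (SD, n = 5) and 734 ± 116 CPM at day 4 (SD, n = 4), a log2 fold change of -0.89 (edgeR adjusted p = 0.000324). With the fibroblast covariate, which did not overlap between days, it was -0.81 and no longer passed (edgeR adjusted p = 0.05, the highest of any alternative). The count of lower regulators was then 2. It was 4 to 7 when single libraries were left out, and the count of higher regulators was 2 without day 14 replicate 3 or 5 or day 4 replicate 2. Egln1, a prolyl hydroxylase that marks HIF subunits for destruction, had 49.0 ± 3.19 CPM at day 14 and 77.1 ± 7.62 CPM at day 4. The median log2 fold change of the 27 regulators was -0.11.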

How the data were processed

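The authors deposited estimated counts per gene symbol in 9 libraries, not normalized, with a mean of 16.7% of values per library not whole, and these were rounded here. Values were fractional in all 9 libraries for Hk1 and Pfkp, in 8 for Pfkfb3, 7 for Hk3 and 3 for Pfkm, and in 0 for the other 5 genes. A second deposited table gives a normalized signal, on the scale of scaled counts, for 13673 genes. It was used only for Pfkfb4 in day 14 replicate 5, where it holds 1 against an estimated count of 0. The tools named, per the submitters' processing notes, are HISAT2 2.1.0, SAMtools 1.4, CASAVA 1.8, DESeq2 and Partek 6.6, on mm10. What each was used for, the annotation and the strand setting are not given in the sources used here. Per the labels' protocols, paired-end libraries were made from Trizol-extracted RNA with the TruSeq RNA kit v2, which does not mark strand.

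Samples were grouped by the time point in the labels, and replicate numbers only name libraries. All pairs of libraries of a day differed beyond counting noise, with a chi-square of 11.6 to 79.3 per degree of freedom. Gene order came from RefSeq on GRCm38.p6 (17103 symbols matched, 1097 more by an older name, 103 not). Spans and lengths of the members came from the GENCODE annotation of that assembly. In day 14 replicate 5, of chromosome 9 genes with at least 50 counts in each other library, 0 of 102 before Aplp2 and 482 of 482 after it were at 0. The 1505 genes at or beyond this point were therefore tested on the 8 other libraries and the rest on 9. A single fit of all genes, which reads the missing counts as low levels, was kept as an alternative. TMM scaling used the genes before that point, and filterByExpr left 13308 genes. Two-sided quasi-likelihood tests (glmQLFTest after a robust glmQLFit) were made with edgeR 4.0.16 under R 4.3.3, and limma 3.58.1 and DESeq2 1.42.0 served as alternatives, with Benjamini-Hochberg adjustment over both parts together and a threshold of 0.05. The fit was also run on simulated counts with the same dispersion for every gene. That run checks the steps of the fit and not how well it suits these libraries. CPM are relative to all counts of genes before that point. Isoenzyme ratios are log2 ratios of counts with 0.5 added, compared by exact permutation of libraries (scipy 1.17.1). Their intervals come from the pooled SD of both days and the t distribution, which the permutation p does not assume.

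The 10 genes, the pathway lists and the cell type markers were chosen with earlier results of these data known. Named genes are the 10, the gene with the highest CPM and the 2 with the lowest p of each list, and the gene most like each of the 10 (log2 CPM with a prior count of 2, predicted genes left out). Further genes are named where a list had at most 5 calls in a direction, or to describe a cell type. These, and the promoters shown, were picked after seeing their values. Alternatives were the handling of the break, 3 other scalings, 2 other tests, 2 filters, non-robust dispersion, library size and marker covariates, a split by depth at 30000000 counts, leaving out each library, and 5 counts or 1 CPM added in ratios. The union of exons as length was added after seeing the data. One glycogen gene that passed is not reported here by name.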

Additional observations from a re-analysis of the deposited data

Results flagged for a closer look

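In 34 groups of 4 or 5 libraries (each gene and each isoenzyme ratio at each day), a library was marked where its gap to the nearest other, divided by the range of the group, exceeded Dixon's 95% critical value (0.829 for 4 libraries and 0.71 for 5). Chance marks about 1 in 20 groups, and 4 of the 34 were marked. Hk1 was at 81.4 CPM in day 14 replicate 2, below the nearest library of that day at 90.1 CPM. Pfkl was at 94.3 CPM in day 4 replicate 2, below the nearest at 137.9 CPM. Pfkfb4 was at 39.4 CPM in the same library, below the nearest at 52.7 CPM. The log2 ratio of Pfkm to Pfkp was -5.23 in day 14 replicate 4, below the nearest at -4.72. Day 4 replicate 2 thus accounts for 2 of the 4. Its fibroblast marker sum of 24740 CPM was the highest of the 9 libraries, and the part of those cells in its values was not tested.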

How the results depend on the processing

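Slc2a1, Gpi1 and Pfkl kept their direction and stayed under the threshold in 22 distinct alternatives with at least 2 libraries a day, with log2 fold changes between -1.55 and -1.03, -1.05 and -0.69, and -1.58 and -1.14. Taking all genes from the 8 other libraries repeats leaving out day 14 replicate 5 and is counted once. The count of the 10 genes called lower was 3 to 5 when single libraries were left out, with 5 without day 4 replicate 2. In the 3 libraries over 30000000 counts the log2 fold changes of Hk1, Hk3 and Pfkfb4 were -0.33, -0.44 and -0.49. That comparison has 1 day 14 library, so only effect sizes are given for it. The count called higher was 0 to 1 when single libraries were left out, with 1 (Pfkp) without day 4 replicate 1. Hk1 passed with total-count scaling (edgeR adjusted p = 0.0428) and DESeq2 (adjusted p = 0.0422). It also passed with the fibroblast covariate (-0.68, edgeR adjusted p = 0.0437) and without day 4 replicate 2. Over all genes, 2102 were higher and 2013 lower at day 14. These counts were 590 and 492 with the fibroblast covariate, 1223 and 1117 with the neutrophil covariate, 1044 and 1043 in the 6 shallower libraries, and 1565 to 2409 and 1496 to 2420 when single libraries were left out. Slc2a3 turned to 0.72 with the neutrophil covariate (edgeR adjusted p = 0.035, with up to 0.991 over its alternatives). With the fibroblast covariate Prps2 (0.65 ± 0.23 SE against 0.75 ± 0.11, edgeR adjusted p = 0.112) and Pgm3 (-0.44 ± 0.19 SE against -0.62 ± 0.11, edgeR adjusted p = 0.202) no longer passed, with wider errors. That covariate did not overlap between days, so a call kept or lost with it does not tell fibroblast markers from day. The neutrophil covariate overlapped between days only through day 14 replicate 3, so values with it tell neutrophil markers from day only in part. With upper-quartile scaling 59.9% of all calls were higher, against 51.1%. The cause of these changes was not tested. The number of isoenzyme pairs that passed was 0 in all 11 alternatives, where leaving out a library raises the smallest possible p. No paired analysis was possible because the labels give every library its own number and none is shared between days. Pfkm, at 118 to 591 counts per library, is the gene where counting error is largest.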
